A study of Homo sapiens with 8 samples.

Results

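Expression of 10 glucose transporter and glycolysis genes was described, out of 63241 gene identifiers in the expression tables. The genes were the transporters SLC2A1, SLC2A2, SLC2A3 and SLC2A14, the hexokinases HK1 and HK2, the phosphofructokinase PFKP, the regulatory enzyme PFKFB3, the pyruvate kinase PKM and the lactate dehydrogenase LDHA. All were matched by their Ensembl identifiers. They were chosen from the expression values of the same libraries, SR against WT and between the cell lines, so their levels and changes are given as a description with no test. The cells were HepG2 and Huh7, which are established lines of human hepatocellular carcinoma (HCC). WT cells were the sensitive parental cells, labelled control. SR cells were their sorafenib-resistant counterparts, labelled sorafenib, which had been derived from each line by stepwise increase of this multikinase inhibitor. Resistance and the presence of the drug at harvest cannot be told apart from these labels. The 8 libraries of polyadenylated RNA comprised 2 for each combination of cell line and status, all labelled as the same batch. Values are FPKM, fragments scaled to transcript length and library size, so they can be compared between genes of different length.

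Glucose enters cells through facilitative transporters of the SLC2A (GLUT) family, is trapped by phosphorylation through a hexokinase and is committed to glycolysis by phosphofructokinase. Pyruvate kinase forms pyruvate at the last step, and lactate dehydrogenase converts pyruvate to lactate. Mature hepatocytes rely on the transporter SLC2A2 (GLUT2), whereas many liver tumors carry the SLC2A1 (GLUT1) transporter and the hexokinase HK2.

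Before the genes were compared, libraries were set against each other by the correlation of their log2(FPKM + 1) values over genes (Pearson's r, with genes that are not independent of each other). Replicate 1 of both Huh7 groups was alike between WT and SR, with r of 0.965. Replicate 2 of both Huh7 groups was instead alike to both HepG2 WT libraries and to HepG2 SR replicate 1, with r between 0.914 and 0.977 among these 5. Huh7 replicate 1, WT and SR, stood apart from the 5, with r between 0.731 and 0.783, and so did the other HepG2 SR library, replicate 2, with r between 0.775 and 0.819. With replicate 1 of Huh7 WT and of Huh7 SR, HepG2 SR replicate 2 had r of 0.815 and 0.846. Profiles thus went against the labelled cell line, and the labels were kept. The paper reports short tandem repeat profiling of its cell lines, and whether libraries were exchanged was not tested. These 3 libraries are referred to below as those that stood apart. All 14 hepatocyte markers examined reached 1 FPKM in at least 1 library, but ALB, which encodes albumin, stood at only 12 and 42.3 FPKM in Huh7 replicate 1, WT and SR, against at least 604 FPKM in the others. The markers did not move as one, since FGA (594 and 805 FPKM) and FGB (380 and 327 FPKM), fibrinogen genes named after their values were seen, were high in these libraries, and at most 56.5 and 4.51 FPKM in the 5 that were alike. In HepG2 SR replicate 2, FGA stood at 1153 FPKM and FGB at 128 FPKM. The number of genes at 1 FPKM or more was between 12829 and 13386 in a library, while genes above 0 numbered 38276 in HepG2 WT replicate 2 and between 27188 and 29071 in the other 7. Depth is unknown, because low values did not fall on whole reads: at the best spacing between 7.98% and 9.98% lay within 0.02 of one. A spacing fixed in advance would give 4.0% by chance, and the chance level for the best spacing was not determined.

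The 4 transporters carry glucose across the plasma membrane. SLC2A1 supplies basal glucose uptake in many proliferating cells, and SLC2A3 (GLUT3) is a transporter of high affinity. SLC2A14 (GLUT14) arose as a duplicate of SLC2A3 and lies next to it, at chr12:7812512-7891148, with SLC2A3 at chr12:7919230-7936275, both on the minus strand of GRCh38 in GENCODE release 29. Their coding sequences were identical at 1439 of 1488 aligned bases (96.7%), with 49 differences. SLC2A3 and SLC2A1 were identical at 67.2% of aligned coding bases, and SLC2A1 and SLC2A2 at 62.0%. A stretch of 120 coding bases from a GENCODE transcript of each gene is shown as an example of this likeness. Capitals mark the 4 positions at which the sequences differ.
SLC2A3: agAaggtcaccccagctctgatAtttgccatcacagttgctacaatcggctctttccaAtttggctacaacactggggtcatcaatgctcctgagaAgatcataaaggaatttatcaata
SLC2A14: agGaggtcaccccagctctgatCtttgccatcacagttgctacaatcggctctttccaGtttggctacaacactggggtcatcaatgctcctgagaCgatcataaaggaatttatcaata
The longest run of identical bases was 137. Of all stretches of 100 bases in the SLC2A3 transcript, 7.05% also occurred in SLC2A14, and 4.62% of those of the SLC2A14 transcript occurred in SLC2A3. The other 8 genes shared at most 2.73% of such stretches with any other gene, the highest being HK2 with its pseudogene HK2P1. How the authors assigned fragments between such copies is not given in the sources used here, so the levels of SLC2A3 and SLC2A14 are uncertain relative to each other.

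SLC2A3 was expressed at 773 and 518 FPKM in HepG2 WT, at 173 and 0.0940 FPKM in HepG2 SR, at 334 and 22.4 FPKM in Huh7 WT and at 99.6 and 313 FPKM in Huh7 SR, replicate 1 first as in all pairs of values. It was the most abundant of the 4 transporters in both HepG2 WT libraries and nearly absent from the library labelled HepG2 SR replicate 2. SLC2A14 was expressed at 53.9 and 24.3 FPKM in HepG2 WT and 7.12 and 0.649 FPKM in HepG2 SR. In Huh7 it stood at 3.39 and 4.51 FPKM in WT and 1.12 and 19.5 FPKM in SR. Both genes were lower in each HepG2 SR library than in either HepG2 WT library, and in Huh7 the SR and WT libraries overlapped for both. The FPKM of SLC2A14 was 6.97%, 4.69% and 4.12% of that of SLC2A3 in HepG2 WT replicates 1 and 2 and HepG2 SR replicate 1, and 691% in HepG2 SR replicate 2, where SLC2A3 was lowest. In Huh7 it was 1.01% and 20.1% in WT and 1.12% and 6.24% in SR. The ratio of the 2 genes thus differed widely between libraries. Summed over both genes, FPKM was 827 and 542 in HepG2 WT, 180 and 0.743 in HepG2 SR, 338 and 27.0 in Huh7 WT and 101 and 333 in Huh7 SR. The sum followed SLC2A3 in each library except HepG2 SR replicate 2, in which SLC2A14 was the larger.

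SLC2A1, at chr1:42925375-42959176 on the minus strand, was expressed at 183 and 238 FPKM in HepG2 WT, 184 and 11.5 FPKM in HepG2 SR, 11.1 and 71.4 FPKM in Huh7 WT and 11.3 and 179 FPKM in Huh7 SR. It was low in the same 3 libraries that stood apart in overall expression, whether these were labelled WT or SR. SLC2A2, at chr3:170996348-171026750 on the minus strand, had 0.433 and 1.52 FPKM in HepG2 WT and 0.945 and 0.722 FPKM in HepG2 SR. In Huh7 it stood at 13 and 0.0886 FPKM in WT and at 19.4 and 0.870 FPKM in SR. SLC2A2, the transporter typical of hepatocytes, was thus above 2 FPKM in replicate 1 of Huh7 WT and of Huh7 SR and in no other library, with SR and WT overlapping in both cell lines.

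**Figure D1:**
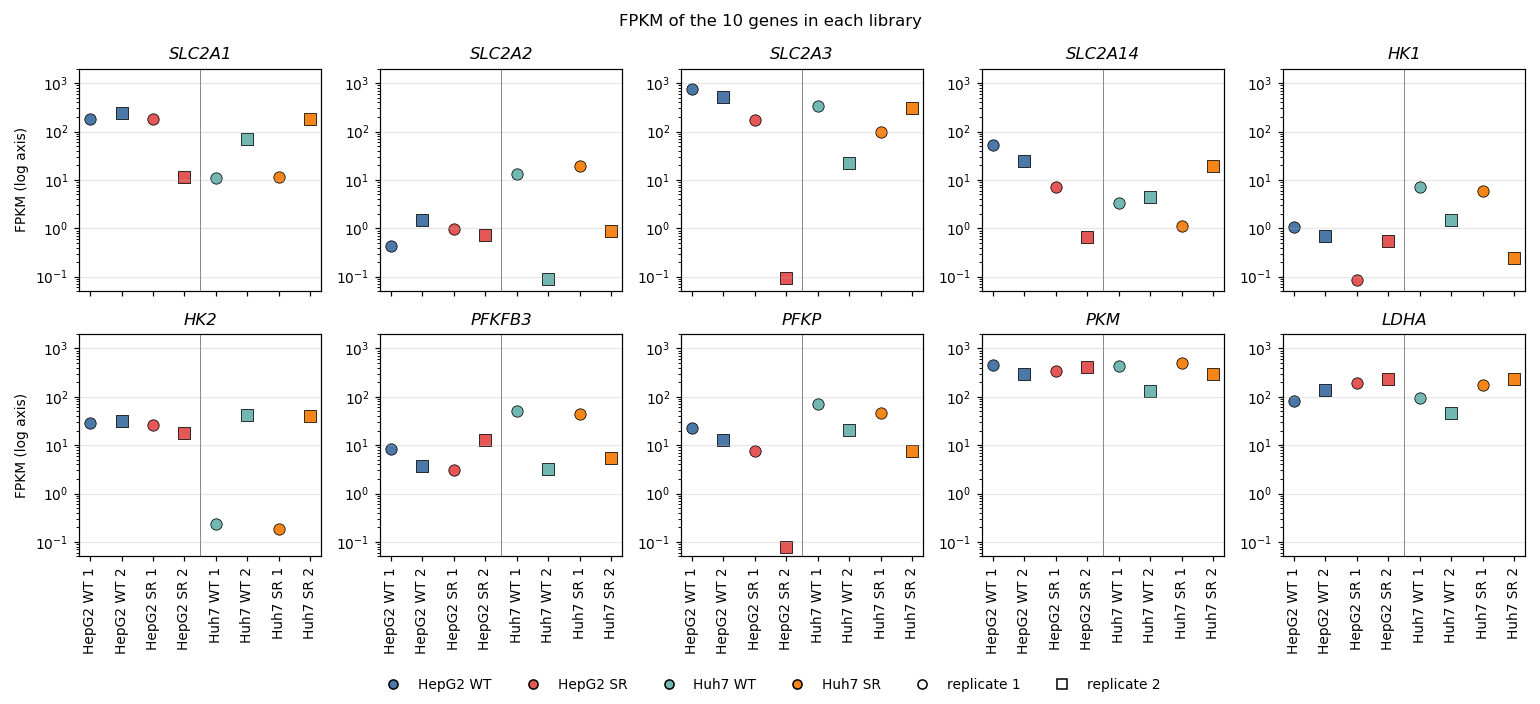
FPKM of each of the 10 genes in each of the 8 libraries, on a log axis, colored by group, with circles for replicate 1 and squares for replicate 2. SLC2A3 and PFKP have their lowest points in HepG2 SR replicate 2 (0.0940 and 0.0780 FPKM), SLC2A2 its highest in Huh7 replicate 1 (13 and 19.4 FPKM), and LDHA is higher in the SR than in the WT libraries of each cell line.

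Between SR and WT, differences are given as log2 fold changes of FPKM + 1, which understate the change of weakly expressed genes, with the standard error (SE) of a limma fit to 4 group means. In HepG2, SLC2A3 averaged 645 ± 180 FPKM in WT and 86.4 ± 122 FPKM in SR (SD, n = 2), a log2 fold change of −5.52 (SE 2.30). Most of its size came from a single library, since it was −1.87 without HepG2 SR replicate 2 and −9.18 without HepG2 SR replicate 1. SLC2A14 averaged 39.1 ± 20.9 FPKM in HepG2 WT and 3.89 ± 4.58 FPKM in HepG2 SR (SD, n = 2), a log2 fold change of −3.35 (SE 1.17). Leaving out any single HepG2 library kept it between −4.50 and −2.20. For SLC2A1 the log2 fold change was −2.13 (SE 1.67) in HepG2, and it was −0.18 without HepG2 SR replicate 2 and −4.07 without HepG2 SR replicate 1. For SLC2A2 it was −0.05 (SE 1.42), with −0.46 when HepG2 WT replicate 1 was left out, turning to 0.35 without HepG2 WT replicate 2, to 0.03 without HepG2 SR replicate 2 and to 0.00 with quantile normalization.

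In Huh7, none of the 4 transporters kept a direction when single libraries were left out, which sets libraries of unlike profile against each other. SLC2A3 averaged 178 ± 221 FPKM in WT and 206 ± 151 FPKM in SR (SD, n = 2), a log2 fold change of 1.0 (SE 2.30), and −0.92 without Huh7 WT replicate 2. Without the 3 libraries that stood apart, which leaves 1 library each of Huh7 WT, Huh7 SR and HepG2 SR, it was 3.74. SLC2A14 had a log2 fold change of 0.42 (SE 1.17), and −1.22 without Huh7 SR replicate 2. SLC2A1 had 0.67 (SE 1.67), and −0.62 when Huh7 WT replicate 1 was left out and −1.27 when Huh7 SR replicate 2 was. SLC2A2 had 0.66 (SE 1.42), and −1.18 when Huh7 WT replicate 2 was left out and −1.06 when Huh7 SR replicate 1 was, while a pseudocount of 0.1 gave 1.47. The highest values with a single Huh7 library left out were 2.92 for SLC2A3 and 2.50 for SLC2A2 (WT replicate 1 left out) and 2.06 for SLC2A14 and 2.61 for SLC2A1 (SR replicate 1 left out). Without the 3 libraries that stood apart, values were 1.90 for SLC2A14, 1.32 for SLC2A1 and 0.78 for SLC2A2. Between libraries of like profile, SR minus WT was 0.54 for replicate 1 and 0.78 for replicate 2 in SLC2A2 and 0.02 and 1.32 in SLC2A1, alike in sign, but −1.74 and 3.74 in SLC2A3 and −1.05 and 1.90 in SLC2A14. The contrast between the cell lines, Huh7 minus HepG2, was 6.53 (SE 3.25) for SLC2A3, 3.77 (SE 1.65) for SLC2A14 and 2.79 (SE 2.36) for SLC2A1. Without HepG2 SR replicate 2 these contrasts were 2.87, 2.62 and 0.85, without HepG2 SR replicate 1 they were 10.18, 4.92 and 4.74, and without the 3 libraries that stood apart they were 5.61, 4.10 and 1.5. For SLC2A1 the contrast was also 1.5 and 4.73 without replicate 1 of Huh7 WT and of Huh7 SR in turn and 0.86 without Huh7 SR replicate 2, and for SLC2A14 it was 2.13 without the last. These are bulk libraries, in which fewer cells with a transcript and less of it per cell cannot be told apart.

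The transporters were then set against their family, by the share of each in the summed FPKM of the 14 SLC2A genes. The sum itself was 1096 and 870 FPKM in HepG2 WT, 436 and 49.7 FPKM in HepG2 SR, 386 and 172 FPKM in Huh7 WT and 155 and 576 FPKM in Huh7 SR. SLC2A3 made up 70.5% and 59.6% of it in HepG2 WT, 39.6% and 0.189% in HepG2 SR, 86.5% and 13% in Huh7 WT and 64.4% and 54.3% in Huh7 SR. SLC2A1 made up 16.7% and 27.4% in HepG2 WT, 42.3% and 23.1% in HepG2 SR, 2.87% and 41.4% in Huh7 WT and 7.30% and 31.1% in Huh7 SR. One or the other was thus the leading transporter in each library except HepG2 SR replicate 2, where SLC2A8, a transporter of internal membranes, had 48.2%. The share of SLC2A2 reached 12.5% in Huh7 SR replicate 1 and 3.36% in Huh7 WT replicate 1, and was at most 1.45% elsewhere.

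Hexokinases phosphorylate glucose on entry. HK2, an inducible form found on mitochondria in many tumors, lies at chr2:74833981-74893359, and HK1, the form of most tissues, at chr10:69269984-69401884, both on the plus strand. Their coding sequences were identical at 72.5% of aligned bases. HK2 was measured at 28.2 and 32.1 FPKM in HepG2 WT, 26.3 and 17.7 FPKM in HepG2 SR, 0.231 and 42.3 FPKM in Huh7 WT and 0.187 and 39.7 FPKM in Huh7 SR. It was nearly absent from replicate 1 of both Huh7 groups and well expressed in the other 6 libraries. HK1 was measured at 1.07 and 0.699 FPKM in HepG2 WT, 0.0849 and 0.542 FPKM in HepG2 SR, 7.28 and 1.48 FPKM in Huh7 WT and 5.83 and 0.248 FPKM in Huh7 SR. The highest HK1 levels were in those libraries in which HK2 was lowest. In HepG2, both genes were lower in each SR library than in either WT library, with log2 fold changes of −0.46 (SE 1.99) for HK2 and −0.54 (SE 0.89) for HK1. That of HK2 was −0.19 without HepG2 SR replicate 2 and −0.73 without HepG2 SR replicate 1. That of HK1 was −0.28 without HepG2 SR replicate 1 and −0.79 without HepG2 SR replicate 2, and −1.49 with a pseudocount of 0.1. In Huh7, SR and WT overlapped for both. There HK2 had −0.07 (SE 1.99), and −2.64, 2.50, 2.48 and −2.62 without WT replicates 1 and 2 and SR replicates 1 and 2 in turn, and 0.00 with quantile normalization. HK1 had −0.63 (SE 0.89) in Huh7, turning to 0.24 without Huh7 WT replicate 1 and to 0.59 without Huh7 SR replicate 2, with −1.5 when Huh7 WT replicate 2 was left out and −1.86 when Huh7 SR replicate 1 was. Without the 3 libraries that stood apart, Huh7 values were −0.09 for HK2 and −0.99 for HK1, and between the replicate 1 libraries they were −0.05 and −0.28. A pseudocount of 0.1 gave −0.15 for HK2 and −1.25 for HK1 in Huh7. AC019069.1, which overlaps HK2 on the opposite strand, was listed between 0 and 2.94 FPKM, and whether fragments were counted by strand is not given in the sources used here.

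Of the summed FPKM of 5 hexokinase genes, HK2 made up 58.7% and 62.3% in HepG2 WT, 65.3% and 96.1% in HepG2 SR, 1.03% and 27.0% in Huh7 WT and 0.953% and 76.8% in Huh7 SR. HK1 made up 32.5% in Huh7 WT replicate 1 and 29.7% in Huh7 SR replicate 1, and at most 2.94% in any other library. Most of the rest was HKDC1, a hexokinase-like gene next to HK1, with 72% in Huh7 WT replicate 2 and 0.947% in HepG2 SR replicate 2. HK2 was therefore the main hexokinase in the 4 HepG2 libraries and Huh7 SR replicate 2, and HKDC1 in the other 3.

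**Figure D2:**
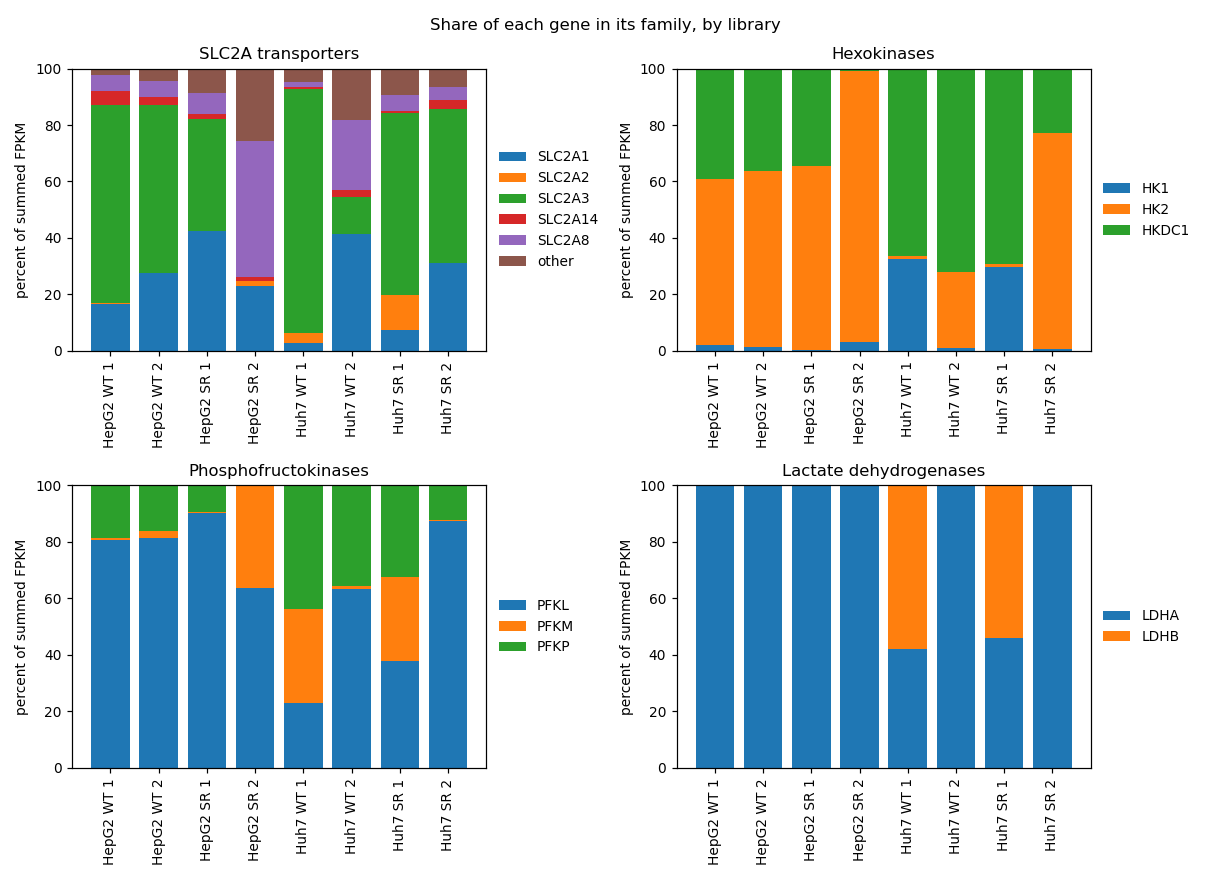
Share of each gene in the summed FPKM of its family, in percent, for SLC2A transporters, hexokinases, phosphofructokinases and lactate dehydrogenases, with a stacked bar for each of the 8 libraries. Replicate 1 of Huh7 WT and SR differs from the other libraries in its hexokinase and lactate dehydrogenase shares, with LDHB at 58.0% and 54.2% of LDHA and LDHB. PFKM has 33.3% and 29.6% of phosphofructokinase FPKM there and 36.3% in HepG2 SR replicate 2.

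Phosphofructokinase catalyzes the committed step of glycolysis, and PFKFB3 makes fructose 2,6-bisphosphate, its strongest activator. PFKP, the platelet type, lies at chr10:3066333-3137712 and PFKFB3 at chr10:6144934-6254644, both on the plus strand. PFKP was expressed at 22.3 and 13 FPKM in HepG2 WT, 7.63 and 0.0780 FPKM in HepG2 SR, 69.4 and 20.7 FPKM in Huh7 WT and 47.0 and 7.66 FPKM in Huh7 SR. It was lower in each HepG2 SR library than in either HepG2 WT library, and in Huh7 the groups overlapped. PFKFB3 was expressed at 8.34 and 3.74 FPKM in HepG2 WT, 3.08 and 12.7 FPKM in HepG2 SR, 50.2 and 3.28 FPKM in Huh7 WT and 44.8 and 5.30 FPKM in Huh7 SR. It was highest in the 3 libraries that stood apart, and WT and SR overlapped in both cell lines. The log2 fold change of PFKP was −2.56 (SE 1.20) in HepG2, from 17.6 ± 6.61 to 3.85 ± 5.34 FPKM (SD, n = 2), and −1.06 without HepG2 SR replicate 2, −4.07 without HepG2 SR replicate 1 and −3.87 with a pseudocount of 0.1. In Huh7 it was −0.94 (SE 1.20), and −0.09 and −1.79 without Huh7 WT replicates 1 and 2 in turn, −2.17 and 0.30 without Huh7 SR replicates 1 and 2 in turn, −1.32 without the 3 libraries that stood apart and −0.55 between the replicate 1 libraries. PFKFB3 had 0.17 (SE 1.39) in HepG2, and 0.66 and −0.32 without HepG2 WT replicates 1 and 2 in turn and 1.04 and −0.71 without HepG2 SR replicates 1 and 2 in turn. In Huh7 it had 0.20 (SE 1.39), and 1.99 and −1.59 without Huh7 WT replicates 1 and 2 in turn, −1.23 and 1.63 without Huh7 SR replicates 1 and 2 in turn, 0.56 without the 3 libraries and −0.16 between the replicate 1 libraries.

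Within the 3 phosphofructokinase genes, PFKP made up 18.8% and 16.1% of summed FPKM in HepG2 WT, 9.34% and 0.0800% in HepG2 SR, 43.7% and 35.6% in Huh7 WT and 32.4% and 12.1% in Huh7 SR. The liver type PFKL was the largest in each library except Huh7 WT replicate 1, in which PFKP was. The muscle type PFKM reached 36.3% in HepG2 SR replicate 2 and 33.3% and 29.6% in Huh7 WT and SR replicate 1, and at most 2.43% in the other 5 libraries. PFKFB3 made up 81.7% and 77.7% of the 4 PFKFB genes in Huh7 WT and SR replicate 1 and 64.9% in HepG2 SR replicate 2, against 15.3% to 38.5% in the other 5.

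PKM, which encodes the M1 and M2 forms of pyruvate kinase, lies at chr15:72199029-72231822 on the minus strand. It was measured at 462 and 298 FPKM in HepG2 WT, 347 and 421 FPKM in HepG2 SR, 434 and 135 FPKM in Huh7 WT and 492 and 297 FPKM in Huh7 SR. It was high in all 8 libraries, and SR and WT overlapped in both cell lines. PKM made up between 99.2% and 100.0% of the summed FPKM of PKM and PKLR, the liver and red cell gene, and gene-level FPKM does not separate M1 from M2. Its log2 fold change was 0.04 (SE 0.60) in HepG2, a value that turned to −0.06 after rescaling to a common sum (TPM), −0.22 with quantile normalization, −0.27 without HepG2 WT replicate 2 and −0.10 without HepG2 SR replicate 2, and was 0.36 and 0.18 without replicate 1 of HepG2 WT and of HepG2 SR. In Huh7 it was 0.66 (SE 0.60), and 1.5 and −0.18 without Huh7 WT replicates 1 and 2 in turn, 0.29 and 1.02 without Huh7 SR replicates 1 and 2 in turn, 1.14 without the 3 libraries that stood apart and 0.18 between the replicate 1 libraries. Of the 10 genes, PKM had the highest mean over the 8 libraries (361 FPKM) and the smallest range, 1.86 on the scale of log2(FPKM + 1).

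LDHA, the lactate dehydrogenase subunit that favors lactate formation, lies at chr11:18394388-18408425 on the plus strand. It was expressed at 82.8 and 141 FPKM in HepG2 WT, 196 and 228 FPKM in HepG2 SR, 93.3 and 46.1 FPKM in Huh7 WT and 172 and 231 FPKM in Huh7 SR. All 4 SR libraries were above all 4 WT libraries, including the 3 that stood apart. In HepG2 it averaged 112 ± 41.4 FPKM in WT and 212 ± 23.0 FPKM in SR (SD, n = 2), a log2 fold change of 0.96 (SE 0.46). In Huh7 it averaged 69.7 ± 33.3 FPKM in WT and 202 ± 41.6 FPKM in SR (SD, n = 2), a log2 fold change of 1.59 (SE 0.46). Leaving out single libraries of the same cell line gave 0.58 to 1.34 for HepG2 and 1.09 to 2.09 for Huh7. Without the 3 libraries that stood apart it was 0.85 in HepG2 and 2.30 in Huh7, and between the Huh7 replicate 1 libraries it was 0.88. Huh7 minus HepG2, the contrast was 0.63 (SE 0.65), with 0.25 and 0.13 without replicate 2 of HepG2 WT and of Huh7 WT and 1.01 and 1.13 without replicate 1 of each, and 1.45 without the 3 libraries that stood apart.

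The related gene LDHB, whose subunit favors the reverse reaction, was abundant in only replicate 1 of Huh7 WT and SR, at 129 and 204 FPKM. It made up 58.0% and 54.2% of the summed FPKM of LDHA and LDHB there. In the other 6 libraries LDHA made up at least 99.75% of this sum, and LDHB was listed at 0 in 3 of these. LDHD was not part of the sum and reached at most 4.94 FPKM, in HepG2 WT replicate 2. LDHA thus made up nearly all of the sum in 6 libraries and shared it with LDHB in those labelled Huh7 replicate 1.

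**Figure D3:**
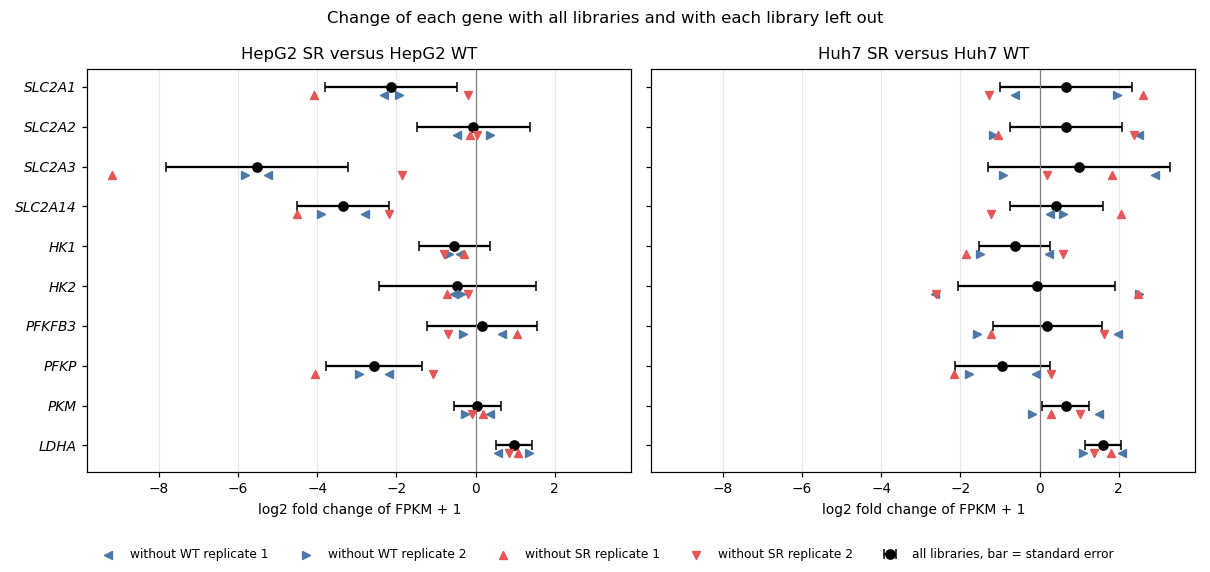
Log2 fold change of FPKM + 1, SR versus WT, for the 10 genes in HepG2 and Huh7, with black circles for all libraries, bars for the standard error and triangles for the value with a single library of that cell line left out. The triangles of LDHA lie above 0 in both cell lines. In HepG2 those of SLC2A1, SLC2A3, SLC2A14, HK1, HK2 and PFKP lie below 0. In Huh7 those of every gene other than LDHA lie on both sides of 0.

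Counted over the genes, 6 of 10 had HepG2 SR libraries that did not overlap with HepG2 WT, LDHA higher and SLC2A3, SLC2A14, HK1, HK2 and PFKP lower. Among all 15173 genes kept for the fit, which had 1 FPKM or more in 2 libraries or more, 38.2% did not overlap in HepG2. In Huh7, LDHA alone did not overlap, where 22.0% of all genes did not. LDHA was also the only one with all 4 SR libraries above all 4 WT libraries, as 230 genes were (1.52%). The thresholds of the study were p under 0.05 and a log2 fold change no smaller than 0.5 or below −0.5. Applied here to p before adjustment in limma, they were passed by 325 genes in HepG2 (2.14%) and 283 genes in Huh7 (1.87%). Nothing is read from the counts of the 10 genes, and which of them passed is not given, because they were chosen from the same values. All 10 passed the filter on low values, HK1 and SLC2A2 through only 4 and 3 libraries at 1 FPKM or more. Ordered by mean FPKM over the 8 libraries, PKM (361) was followed by SLC2A3 (279), LDHA (149) and SLC2A1 (111), then by PFKP (23.5), HK2 (23.4), PFKFB3 (16.4) and SLC2A14 (14.3), and last by SLC2A2 (4.62) and HK1 (2.15). Each gene overlapped with its neighbor in this order across libraries, and SLC2A3 ranged over 9.47, PFKP over 6.03, HK2 over 5.19 and SLC2A14 over 5.06 on the log2 scale.

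Promoter sequences were examined because SLC2A1 and HK2 were both low, and SLC2A2 high, in replicate 1 of Huh7 WT and SR, and because LDHA differed between SR and WT. RefSeq promoters (GRCh38.p14, 250 bases before to 50 bases after a transcription start) were matched for 9 of the 10 genes, with 21 promoters in all. SLC2A3 was not matched. They were searched for ACGTG and GCGTG on both strands, the letters that hypoxia-inducible factors recognize, and CACGTG counts as a match on each strand. Such letters occurred in 13 of the 21 promoters, from 8 genes, and in 48.4% of all 35116 promoters. ACGTG alone occurred in 21.4% of all promoters. The promoters of LDHA (chr11:18394313-18394612, plus strand), HK2 (chr2:74833877-74834176, plus strand), SLC2A1 (chr1:42958819-42959118, minus strand) and SLC2A2 (chr3:171026671-171026970, minus strand) are given 5′ to 3′ on the strand of the gene, with matches in capitals.
LDHA: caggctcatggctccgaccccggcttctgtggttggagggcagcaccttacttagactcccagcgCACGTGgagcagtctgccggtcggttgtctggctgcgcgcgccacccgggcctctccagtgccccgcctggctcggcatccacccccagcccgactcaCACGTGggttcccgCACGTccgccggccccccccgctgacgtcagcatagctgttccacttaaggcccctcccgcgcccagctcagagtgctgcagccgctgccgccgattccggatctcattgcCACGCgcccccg
HK2: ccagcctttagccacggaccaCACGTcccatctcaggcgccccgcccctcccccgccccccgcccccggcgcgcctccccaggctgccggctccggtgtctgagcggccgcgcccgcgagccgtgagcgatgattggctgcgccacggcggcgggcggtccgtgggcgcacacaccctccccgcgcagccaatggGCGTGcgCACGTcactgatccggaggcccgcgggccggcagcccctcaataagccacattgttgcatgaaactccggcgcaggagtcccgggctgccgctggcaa
SLC2A1: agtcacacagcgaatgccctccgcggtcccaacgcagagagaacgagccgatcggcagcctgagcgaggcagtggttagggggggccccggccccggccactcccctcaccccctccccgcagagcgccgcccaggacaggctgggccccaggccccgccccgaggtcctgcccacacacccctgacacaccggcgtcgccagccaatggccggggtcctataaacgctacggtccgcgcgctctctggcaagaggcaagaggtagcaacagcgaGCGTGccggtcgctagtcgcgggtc
SLC2A2: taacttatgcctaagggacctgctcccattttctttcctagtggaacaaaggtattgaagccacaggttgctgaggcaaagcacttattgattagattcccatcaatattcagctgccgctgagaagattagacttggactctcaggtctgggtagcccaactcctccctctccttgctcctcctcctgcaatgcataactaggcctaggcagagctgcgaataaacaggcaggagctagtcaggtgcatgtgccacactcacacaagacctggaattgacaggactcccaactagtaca
The LDHA promoter held 6 matches, 5 of them ACGTG, and the HK2 promoter held 3. A second promoter of each gene held 1 match for LDHA (chr11:18396101-18396400) and 6 for HK2 (chr2:74834920-74835219). SLC2A1 had 1 match and SLC2A2 had 0 in these windows. These matches describe letters and not binding.

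Genes with profiles nearest to 3 of the genes were sought by the root mean square (RMS) difference of log2(FPKM + 1) over the 8 libraries, each profile centered on its mean. Nearest to SLC2A3 were IGFBP1 (1.09), NQO1 (1.25), LGALS3BP (1.28) and IFITM3 (1.44). IGFBP1, for example, was 607 and 371 FPKM in HepG2 WT, 249 and 2.52 FPKM in HepG2 SR, 842 and 207 FPKM in Huh7 WT and 226 and 781 FPKM in Huh7 SR. Like SLC2A3, these 4 genes had their lowest value in HepG2 SR replicate 2, which follows from their choice by likeness, as does the pattern of the genes named next. Nearest to SLC2A2 were TBX18 (0.31), CTAG1B (0.33), C1QL1 (0.34) and CCDC198 (0.35), each of which reached 6 FPKM in both Huh7 replicate 1 libraries and stayed under 1 FPKM in the other 6. Nearest to LDHA were CENPU (0.19), RECQL4 (0.22) and CDT1 (0.23). The level of CTAG1B, which has a near-identical copy, is uncertain. CDT1, a replication licensing factor, was 4.23 and 9.04 FPKM in HepG2 WT, 15.3 and 16.2 FPKM in HepG2 SR, 5.41 and 2.10 FPKM in Huh7 WT and 14.2 and 10.9 FPKM in Huh7 SR. Its 4 SR libraries were above its 4 WT libraries, as the choice by likeness to LDHA favors, whereas CENPU was lower in Huh7 SR replicate 1 (6.48 FPKM) than in HepG2 WT replicate 2 (7.69 FPKM).

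The remaining genes of glucose metabolism were taken from 7 lists of 107 genes, of which 91 were kept for the fit. In HepG2, 0 of 91 passed the thresholds in limma at an unadjusted p, against 2.14% of all genes, and in Huh7 1 did, against 1.87%. Their median log2 fold change was 0.02 in HepG2 and 0.08 in Huh7, against −0.03 and −0.05 over all genes. The gene that passed was SLC37A4, the transporter of glucose 6-phosphate into the endoplasmic reticulum, at 4.17 and 10.6 FPKM in HepG2 WT, 10.4 and 7.0 FPKM in HepG2 SR, 2.31 and 2.47 FPKM in Huh7 WT and 6.44 and 10.4 FPKM in Huh7 SR. Its log2 fold change in Huh7 was 1.44 (SE 0.49, limma adjusted p = 1.0), and it no longer passed without Huh7 WT replicate 1 (1.41), Huh7 WT replicate 2 (1.48) or Huh7 SR replicate 2 (1.14). The list counts depended on single libraries as well: without HepG2 SR replicate 1, 15 genes passed in HepG2 (16.5%, against 11.5% of all genes), and without HepG2 WT replicate 2, 2 did (2.20%, against 1.64%). Without Huh7 WT replicate 1 or 2, the share of the lists past the thresholds in HepG2 was above 0 but below that of all genes. In Huh7, 5 passed without Huh7 WT replicate 1 (5.49%, against 5.39%), 3 without Huh7 SR replicate 1 (3.30%, against 3.74%), and 2 (2.20%, against 1.35% to 1.82%) without each of HepG2 SR replicates 1 and 2, Huh7 WT replicate 2 and Huh7 SR replicate 2. For the contrast of Huh7 with HepG2, the thresholds were passed in 92 genes overall (0.606%) and in 0 of the 91, by limma and before adjustment. Some of the 91 passed without HepG2 WT replicate 2, HepG2 SR replicate 1, Huh7 WT replicate 1, Huh7 SR replicate 1 or Huh7 SR replicate 2. In each of these their share was above that of all genes, from which nothing is read because a group then held a lone library. Without the 3 libraries that stood apart some passed as well, at a share below that of all genes. Without these 3, 1 passed in HepG2 (1.10%, against 3.12%) and 13 in Huh7 (14.3%, against 11.7%).

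By role, the 20 other glycolytic enzymes kept had a median log2 fold change of 0.07 in HepG2 and 0.53 in Huh7, where 14 of 20 were above 0, against 44.7% of all genes. The Huh7 median was 0.80 and 0.08 with Huh7 WT replicates 1 and 2 left out in turn and 0.30 with Huh7 SR replicate 1 left out. The most abundant were GAPDH, with 0.47 (SE 0.82) in HepG2 and 0.90 (SE 0.82) in Huh7, and ENO1, with 0.59 (SE 0.40) and 0.62 (SE 0.40). GAPDH in HepG2 was 0.70 and 0.24 without HepG2 SR replicates 1 and 2 in turn. In Huh7 it was 2.07 and −0.28 without WT replicates 1 and 2 in turn and 0.17 and 1.63 without SR replicates 1 and 2 in turn. ENO1 in Huh7 was 0.16 and 1.08 without WT replicates 1 and 2 in turn. GAPDH, often used as a reference gene, ranged between 513 FPKM in Huh7 WT replicate 2 and 3596 FPKM in Huh7 SR replicate 1. The 8 other sugar transporters had medians of −0.55 and −0.04, led by SLC2A8 and SLC2A9. The 18 genes of lactate and pyruvate handling had medians of 0.21 and 0.11. Among them the lactate exporter SLC16A3 was low in the same Huh7 libraries as HK2, at 195 and 175 FPKM in HepG2 WT, 193 and 66.4 FPKM in HepG2 SR, 0.835 and 85.3 FPKM in Huh7 WT and 1.11 and 160 FPKM in Huh7 SR. Medians were −0.24 and 0.46 for 5 genes of gluconeogenesis, 0.02 and −0.15 for 17 of glycogen metabolism, 0.17 and 0.07 for 10 of the pentose phosphate pathway and −0.37 and −0.15 for 13 regulators of glucose use. The 10 hypoxia-inducible genes outside glycolysis had −0.40 in HepG2 and 0.63 in Huh7, where 9 of 10 were above 0, and 0 passed the thresholds in either cell line in limma, at an unadjusted p. The Huh7 value rested on Huh7 SR replicate 2, without which the median was −0.19 with 4 of 10 above 0, and it was 1.47 without Huh7 SR replicate 1 and 0.98 without Huh7 WT replicate 2. Between the replicate 1 libraries 4 of 10 were above 0 as well, and between the replicate 2 libraries 10 of 10. With single libraries of the same cell line left out, the median changed sign in 6 of 8 lists in each cell line. In HepG2 it then ranged from −0.73 to 0.12 for other sugar transporters and from −0.66 to 0.12 for regulators, lowest without HepG2 SR replicate 1 and highest without HepG2 SR replicate 2. It ranged from −0.46 without HepG2 SR replicate 1 to 0.34 without HepG2 WT replicate 2 for gluconeogenesis, and from −0.71 without HepG2 WT replicate 2 to −0.15 without HepG2 SR replicate 2 for hypoxia-inducible genes. In HepG2 the others ranged from 0.07 to 0.22 for lactate and pyruvate handling and from −0.07 to 0.37 for the pentose phosphate pathway, both lowest without HepG2 SR replicate 1, and from −0.11 to 0.11 for glycogen metabolism and −0.09 to 0.09 for other glycolytic enzymes. In Huh7 the median for other sugar transporters ranged from −0.46 to 0.63, lowest with Huh7 SR replicate 2 and highest with Huh7 SR replicate 1 left out. That for gluconeogenesis ranged from 0.07 to 0.88, lowest with Huh7 WT replicate 2 and highest with Huh7 WT replicate 1 left out. Other Huh7 ranges were −0.12 to 0.49 for lactate and pyruvate handling, −0.34 to 0.17 for glycogen metabolism, −0.24 to 0.38 for the pentose phosphate pathway and −0.24 to 0.12 for regulators.

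**Figure D4:**
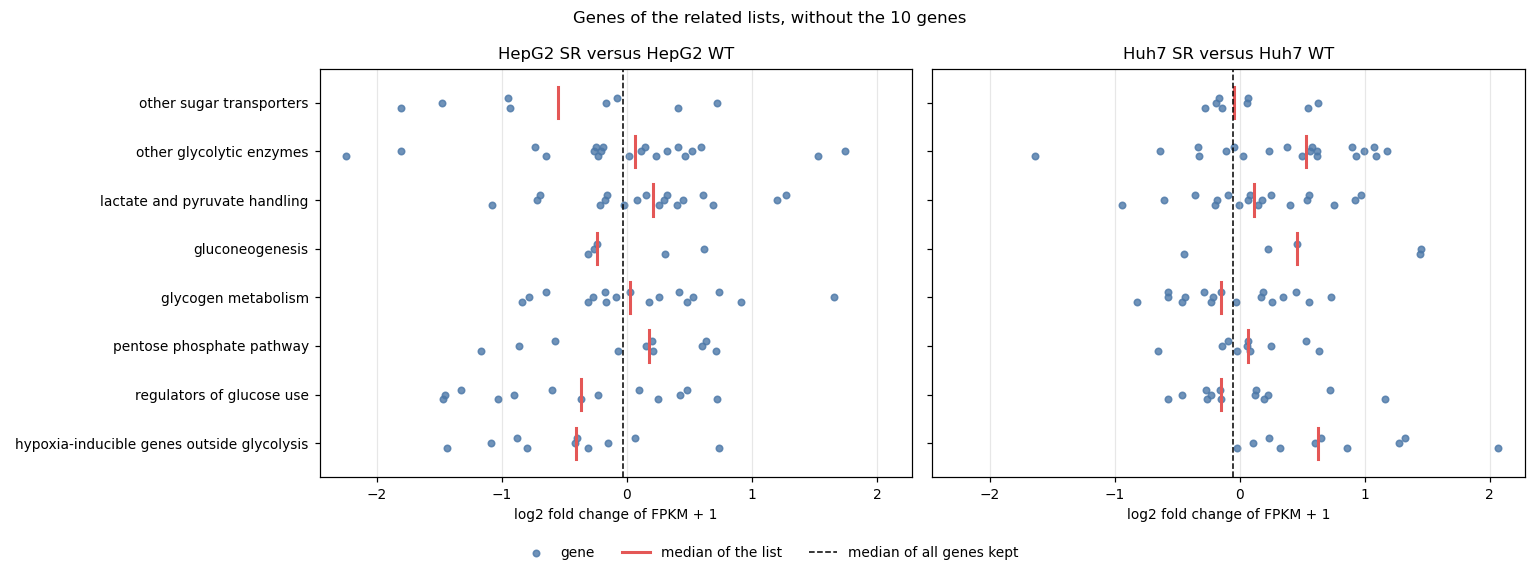
Log2 fold change of FPKM + 1, SR versus WT, in HepG2 and Huh7 for the genes of 8 related lists without the 10 genes, with a point for each gene, a red bar for the median of the list and a dashed line for the median of all genes kept. In Huh7 the medians of other glycolytic enzymes (0.53) and hypoxia-inducible genes (0.63) lie to the right of the line at −0.05, with all libraries included.

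Limits of these comparisons were common to all the genes. Of the genes past the thresholds, 40.9% were higher in SR in HepG2 and 50.5% in Huh7, against 24.8% and 33.0% after rescaling to a common sum (TPM). FPKM summed over all genes was higher in each SR library (411763 to 429111) than in any WT library (384792 to 403905). Values given without TPM rescaling or quantile normalization include this difference. After adjustment in limma, 0 genes had a p under 0.05 in either cell line, with smallest adjusted p-values of 0.956 and 1.0, against 325 and 283 unadjusted. The count in HepG2 was 73 without HepG2 WT replicate 1, 1749 without HepG2 SR replicate 1 and 57 without HepG2 SR replicate 2. That in Huh7 was 158 and 154 without HepG2 WT replicates 1 and 2, 818 without Huh7 WT replicate 1 and 568 if Huh7 SR replicate 1 was left out. For the contrast of cell lines the count, 92, was 24 without HepG2 WT replicate 1, 945 without HepG2 SR replicate 1, 28 without HepG2 SR replicate 2, 339 without Huh7 WT replicate 1 and, with Huh7 SR replicate 1 left out, 465. Nothing in the labels says that replicates came from separate cultures, so p-values measure only the spread between these libraries, which may be technical.

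Markers of cell types differed between libraries as well. The summed FPKM of 14 hepatocyte markers, in which ALB had the highest mean over libraries but made up only 0.721% and 1.60% in Huh7 WT and SR replicate 1, was 6414 and 8854 in HepG2 WT, 9340 and 10237 in HepG2 SR, 1660 and 2398 in Huh7 WT and 2639 and 8833 in Huh7 SR. That of 6 bile duct markers, in which SPP1 had the highest mean but between 0.136% (Huh7 WT replicate 1) and 64.1% (HepG2 SR replicate 1) of the sum, was 1083 and 576 in HepG2 WT, 1283 and 72 in HepG2 SR, 17.3 and 428 in Huh7 WT and 17.9 and 1020 in Huh7 SR. The bile duct sum was lowest in the same 3 libraries as SLC2A1, while the hepatocyte sum was highest in 1 of these, HepG2 SR replicate 2, and lowest in another, Huh7 WT replicate 1. The bile duct markers KRT19, EPCAM and SPP1 were each lowest in these 3 libraries, but CFTR was highest there, at up to 1.77 FPKM. SOX9 was low in Huh7 WT and SR replicate 1 (6.16 and 3.76 FPKM). In HepG2 SR replicate 2 it was 54.1 FPKM, against 48.3 and 35.8 FPKM in HepG2 WT. LYZ led the 6 leukocyte markers, with 60.1% of their summed FPKM in Huh7 WT replicate 2 and at least 91.3% elsewhere. This sum was 246 and 293 in HepG2 WT, 906 and 830 in HepG2 SR, 61.4 and 73.6 in Huh7 WT and 83.6 and 1066 in Huh7 SR. The defining markers PTPRC and CD3E were at most 0.0415 FPKM, and CD79A at most 0.624 FPKM. CD68 was instead between 3.94 and 29.1 FPKM in all libraries, and CD14 between 0.0575 and 6.27 FPKM. Sums reached at most 9.03 for 7 fibroblast markers, in HepG2 SR replicate 2, where COL1A2 made up 91.6% (at most 9.48% elsewhere), and 4.52 for 5 endothelial markers, led by PECAM1. In Huh7, all 14 hepatocyte markers had a log2 fold change above 0, against 44.7% of all genes, with a median of 1.67, which was 2.72 without Huh7 SR replicate 1 and 0.49 without Huh7 SR replicate 2. Of these, 2 passed the thresholds, TF and HNF4A, named after their values were seen, against 1.87% of all genes. LYZ passed as well, with 2.51 (SE 1.05), and 4.37 and 0.65 without Huh7 SR replicates 1 and 2 in turn, and did not pass when any single library other than Huh7 SR replicate 1 was left out. The part of these markers in the levels of the 10 genes was not tested.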

How the data were processed

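Polyadenylated RNA of 8 libraries had been prepared with a NEBNext Ultra kit. The authors deposited FPKM for each gene and library, already scaled to library size and transcript length, with replicates kept apart. The submitters' processing notes name fastp 0.20.0 and GRCh38. The aligner, quantifier and annotation are not given in the sources used here, and the study named edgeR for its own comparison, which needs counts. Values were used as log2(FPKM + 1) in limma 3.58.1 with R 4.3.3 (lmFit, eBayes with trend), as 4 group means over all 8 libraries with 4 residual degrees of freedom, for genes at 1 FPKM or more in at least 2 libraries (15173 genes). The median posterior SD was 0.484. p-values were adjusted over all genes by Benjamini-Hochberg. The fit was tested on simulated data, drawn independently for each gene and library, so shared deviations of unlike replicates were not covered. Of 63241 identifiers, 62666 had a symbol and 58228 a position in GENCODE release 29. Depth could not be recovered from the values, so no interval is given for single values.

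Samples were grouped by their labels alone. The 10 genes and the lists were chosen with earlier results of these data known. Besides the 10 genes, those named were the 2 most abundant of each list of glucose metabolism and of hypoxia-inducible genes, up to 3 of each list past the thresholds, the 4 genes with profiles nearest to SLC2A3, SLC2A2 and LDHA, and the most abundant marker of each cell type. This rule gave 44 genes, of which 43 were kept for the fit; some of the genes examined are not reported here. Outside the rule, relatives of the 10 genes, a gene overlapping HK2 and single markers are named. Lists covered other sugar transporters, other glycolytic enzymes, lactate and pyruvate handling, gluconeogenesis, glycogen metabolism, the pentose phosphate pathway, regulators of glucose use, hypoxia-inducible genes and markers of 5 cell types. Alternatives were a pseudocount of 0.1, an FPKM filter of 0.1 or none, TPM rescaling, quantile normalization, separate fits per cell line, a replicate block, eBayes without trend, a fold threshold of 1, the adjusted p, each library left out, and the 3 libraries with r under 0.9 to HepG2 WT replicate 1 left out. Python 3.11.15 was used for summaries, with matplotlib 3.10.9 for plots, NumPy 2.4.6 and pandas 2.3.3. Protein sequences were not analysed here.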

Additional observations from a re-analysis of the deposited data

How the results depend on the processing

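For the 10 genes, the log2 fold change changed sign in 20 of 80 values with a single library of the same cell line left out, in 4 of 60 with another pseudocount, TPM or quantile normalization and in 3 of 20 without the 3 libraries that stood apart. For the other named genes these were 50 of 264, 11 of 198 and 12 of 66, and SPP1 in HepG2 went from −1.22 to 2.18 without the 3 libraries. The remaining alternatives leave a difference of group means as it is. With a library left out, counts of genes past the thresholds ran from 57 to 1749 in HepG2, 154 to 818 in Huh7, 24 to 945 for the difference between cell lines, and 0 to 15 (HepG2), 1 to 5 (Huh7) and 0 to 8 (difference) in the glucose lists. A lone library was then assumed to vary like the other groups. At an adjusted p under 0.05 all of these counts were 0. A filter at 0.1 FPKM gave 504 of 25773 genes in HepG2 (1.96%, against 2.14% with the filter at 1 FPKM). For the difference it gave 254 (0.986%, against 0.606%). In the glucose lists in Huh7 it gave 2 of 99 (2.02%, against 1.33% of all genes). No filter gave 168 of 46423 genes for the difference (0.362%). Fitted alone, Huh7 gave 124, and HepG2 gave 480 (3.16%), with 2 of 91 (2.20%) in the glucose lists. Without the 3 libraries, which leaves 1 residual degree of freedom, counts were 473 in HepG2 (3.12%), 1777 in Huh7 (11.7%) and 940 for the difference (6.20%), and of 91 in the glucose lists 1 (1.10%), 13 (14.3%) and 5 (5.49%). With the replicate block they were 328, 234 (1.54%) and 91, and 2 in the glucose lists in Huh7 (2.20%). Deviations of same-numbered WT and SR libraries had r of 0.125 in HepG2 and 0.796 in Huh7, and the labels give these pairs no more than a shared number. Between the cell lines, r was −0.158 for WT and −0.562 for SR. Where no reason is given, the cause was not tested. Depth is unknown and limits what low values can show.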
